A study of Mus musculus with 10 samples.

Results

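The early growth response genes Egr1, Egr2, Egr3 and Egr4 and the nuclear receptor genes Nr4a1, Nr4a2 and Nr4a3 were taken by symbol from the table of hippocampal transcripts, as 7 of 27343 genes. All 7 were abundant enough to be tested, among 15938 genes. Male wild-type C57BL/6J mice aged 2 months received Visudyne or vehicle into the cisterna magna, and every mouse of both groups was then exposed through the intact skull to non-thermal red light of 689 nm. Visudyne is a formulation of the photosensitizer verteporfin, which light activates. The procedure was repeated after 2 weeks, the Morris water maze, a test of spatial learning, followed 2 weeks after the last procedure, and the whole hippocampus was taken 3 days after the maze. Each group had 5 total RNA libraries, numbered 1 to 5 for Visudyne and 6 to 10 for vehicle. The treatment label names the maze for the Visudyne mice only, whereas the titles and the protocol place it in both groups. No group without light, without injection or without the maze is analysed here, so the contrast is that of injected Visudyne against vehicle in illuminated, maze-tested mice.

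Both families encode transcription factors that are induced in neurons within minutes of strong synaptic activity, without a need for new protein synthesis. Egr proteins are zinc-finger factors that bind GC-rich elements, and Nr4a proteins are orphan nuclear receptors that bind an extended hormone-response element as monomers. Calcium and MAP kinase signalling reach their promoters through serum response factor (SRF) with its ternary complex partners and through CREB, and in the hippocampus both families are known for their part in long-term plasticity and memory.

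Promoter stretches of 5 of the genes are shown because these elements are the route through which activity reaches the 2 families. They come from the RefSeq table of promoters (GRCm38.p6), which gave an entry for 5 of the 7 genes and none for Egr1 and Egr3. Each runs 5′ to 3′ on the strand of its gene and lies outside the annotated exons. Capitals mark the motifs searched on both strands: the cyclic AMP response element TGACGTCA, its core TGACG (which also lies inside the full element), the CArG box that SRF binds, the Egr element GCGNGGGCG and the Nr4a element AAAGGTCA.
Nr4a1, chr15:101266596-101266845, plus strand: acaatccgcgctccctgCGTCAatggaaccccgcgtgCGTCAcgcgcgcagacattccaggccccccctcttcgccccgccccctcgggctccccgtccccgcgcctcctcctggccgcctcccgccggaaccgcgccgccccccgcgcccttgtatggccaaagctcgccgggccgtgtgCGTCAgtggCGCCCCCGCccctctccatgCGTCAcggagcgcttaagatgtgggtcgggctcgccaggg
Nr4a2, chr2:57124004-57124253, minus strand: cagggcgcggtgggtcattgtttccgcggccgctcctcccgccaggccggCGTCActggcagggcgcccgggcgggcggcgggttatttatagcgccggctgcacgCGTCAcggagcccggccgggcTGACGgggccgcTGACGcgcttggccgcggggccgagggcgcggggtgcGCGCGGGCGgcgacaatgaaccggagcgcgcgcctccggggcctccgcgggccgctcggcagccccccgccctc
Nr4a3, chr4:48045055-48045152, plus strand: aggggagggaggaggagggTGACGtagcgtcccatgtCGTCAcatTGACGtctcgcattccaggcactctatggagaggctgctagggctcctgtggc
Egr2, chr10:67537619-67537868, plus strand: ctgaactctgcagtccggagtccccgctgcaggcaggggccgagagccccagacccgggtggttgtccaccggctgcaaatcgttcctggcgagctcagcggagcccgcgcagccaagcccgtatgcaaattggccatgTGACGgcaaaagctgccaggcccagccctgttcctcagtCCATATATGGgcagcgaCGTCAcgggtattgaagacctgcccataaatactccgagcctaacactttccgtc
Egr4, chr6:85513590-85513839, minus strand: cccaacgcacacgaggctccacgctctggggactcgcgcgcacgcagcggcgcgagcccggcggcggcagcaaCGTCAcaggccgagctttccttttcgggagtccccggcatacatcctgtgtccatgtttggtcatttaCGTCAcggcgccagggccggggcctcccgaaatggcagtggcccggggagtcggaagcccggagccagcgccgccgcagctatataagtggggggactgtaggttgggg

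The core TGACG occurred 4 times in the Nr4a1 stretch, 4 times in that of Nr4a2, 3 times in the 98 bases shown for Nr4a3, and 2 times each in those of Egr2 and Egr4. Among all 32851 promoter windows of 250 bases in that table, 17.8% held at least 1 core match. The Egr2 stretch also held a CArG box, found in 1.47% of windows, which began 72 bases before the start site. The Nr4a1 and Nr4a2 stretches each held 1 Egr element, found in 4.7% of windows. None of the 5 stretches held the full element TGACGTCA (1.55% of windows) or AAAGGTCA (1.34%). These matches describe letters only. The stretches are rich in GC, from 61.2% (Nr4a3) to 80% (Nr4a2), and Egr2 has 5 listed start sites, of which the one used here lies inside the annotated gene, as does that of Nr4a1.

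Of the 7 genes, Nr4a3 rose and Egr3 fell in the Visudyne group at an adjusted p below 0.05, and the other 5 did not pass the test (edgeR quasi-likelihood test with Benjamini-Hochberg adjustment over all tested genes). Passing was common among genes at large: 20.5% of all tested genes were called, 8.98% as higher and 11.5% as lower. In none of the 7 did the Visudyne and vehicle libraries separate without overlap, against 12.5% of all tested genes (5.25% with the Visudyne libraries higher and 7.22% with them lower). When a trend of the libraries with GC content was removed, neither passed, while the log2 differences stayed at -1.24 for Egr3 (-1.37 before) and 0.37 for Nr4a3 (0.35 before).

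Libraries held between 24752362 and 41073906 counts. The libraries also differed along the GC content of transcripts, measured as the slope over genes of log2 CPM (counts scaled to a fixed library size), relative to the mean of the 10 libraries, on the GC fraction. That slope lay between -5.09 (Visudyne 1) and 0.105 (Visudyne 5) in the Visudyne group and between -0.171 (vehicle 10) and 3.87 (vehicle 9) in the vehicle group, so it nearly coincides with treatment. With a smooth GC trend taken out of each library, the share of genes called fell from 20.5% to 2.8%. Markers of the dentate gyrus, CA1 and CA3 were present in every library, as the tissue label says. Choroid plexus markers summed to 426 CPM in Visudyne 3 and 306 CPM in Visudyne 5 against 22.9 to 34.4 CPM in the other libraries, and blood leukocyte markers to 13.8 CPM in Visudyne 5 against 4.34 to 6.09 CPM elsewhere. Visudyne 5 also had the lowest summed dentate granule cell markers, 347 CPM against 381 to 604 CPM in the others. In bulk tissue, fewer cells of a type and less RNA per cell cannot be told apart.

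**Figure D1:**
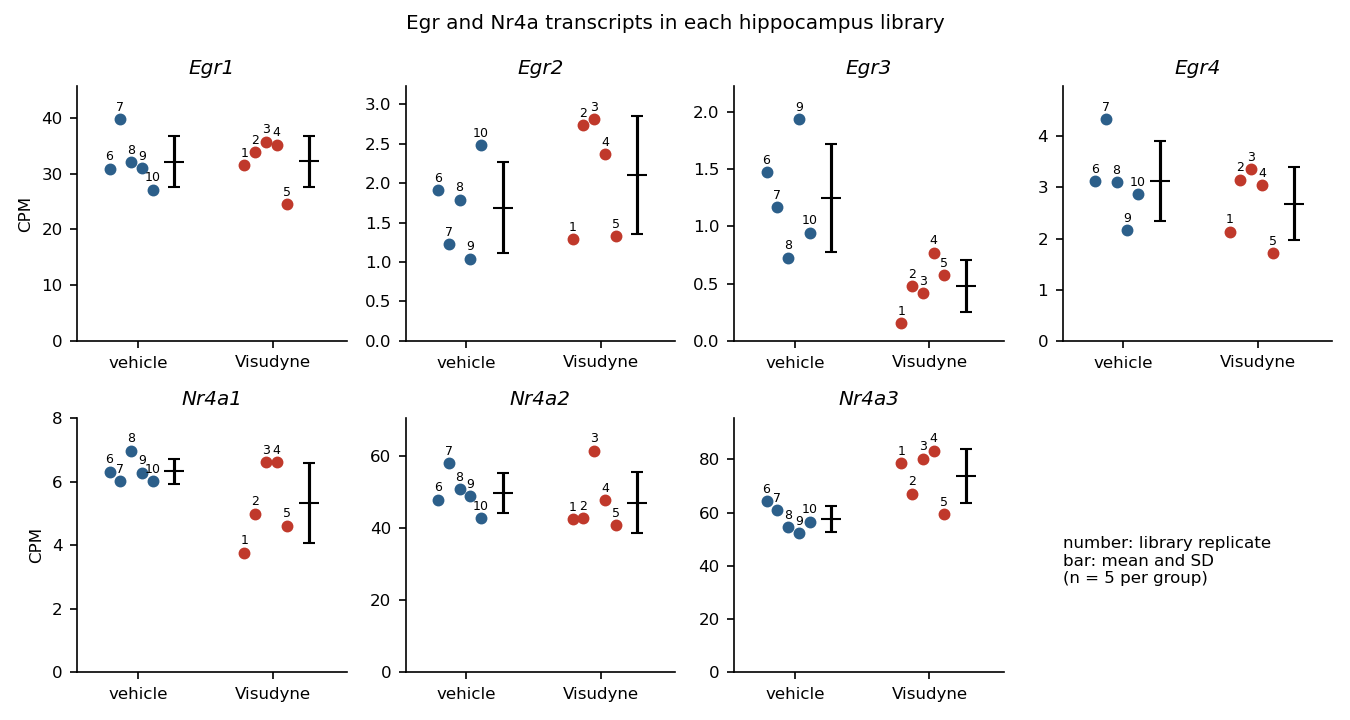
Level of each Egr and Nr4a gene in each hippocampus library, in TMM-scaled CPM on linear axes that start at 0. Points are libraries labelled by replicate number, and the horizontal mark and bar give the mean and SD of each group (n = 5). The Egr3 points of the Visudyne group lie between 0.157 and 0.768, those of the vehicle group between 0.725 and 1.93, and in every panel the groups overlap.

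Egr1, also called Zif268, is the family member most used as a marker of neuronal activation and is required for lasting potentiation in the dentate gyrus. Its gene (ENSMUSG00000038418) lies on chromosome 18 at 34859823 to 34864984, plus strand, in GRCm38. It was measured at 31.6, 33.9, 35.7, 35.2 and 24.5 CPM in Visudyne libraries 1 to 5 and at 30.9, 39.8, 32.1, 31.0 and 27.1 CPM in vehicle libraries 6 to 10. The values interleave, and the lowest of all 10 was Visudyne 5. Group means were 32.2 ± 4.58 and 32.2 ± 4.64 CPM (SD, n = 5 each), a log2 difference of -0.00102 with a 95% interval from -0.251 to 0.249. The adjusted p was 0.996 (edgeR), and the interval leaves room for changes of up to about 0.25 in either direction on the log2 scale. At 57.3% GC, Egr1 moved with that correction: with the GC trend removed its log2 difference was 0.45 (adjusted p = 0.149). With that trend removed, Visudyne libraries 1 to 4 lay between 5.22 and 5.64 log2 CPM, above all vehicle libraries (4.43 to 5.14), and Visudyne 5 lay at 4.53. With Visudyne 5 also left out the difference was 0.60, a value given as a description only, since that library was dropped after its Egr1 level had been seen. Visudyne 5 is the library with the highest leukocyte marker sum, and the part of those markers in its Egr1 level was not tested.

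Egr2, or Krox20, acts in hindbrain patterning and in the myelin program of Schwann cells and is also induced by activity in neurons. The gene (ENSMUSG00000037868) lies at chromosome 10, 67535475 to 67542188, plus strand. Levels were low and scattered, with 1.29, 2.74, 2.81, 2.36 and 1.33 CPM in the Visudyne libraries and 1.91, 1.23, 1.79, 1.04 and 2.48 CPM in the vehicle libraries. Visudyne 2, 3 and 4 sat high and Visudyne 1 and 5 fell among the lower vehicle values. The means were 2.11 ± 0.747 and 1.69 ± 0.574 CPM, and the log2 difference of 0.32 had a 95% interval from -0.30 to 0.95 (adjusted p = 0.417, edgeR). A change of either sign is inside that interval. Markers of Schwann cells summed to 9.44 to 10.6 CPM in the Visudyne group and 9.97 to 11.4 CPM in the vehicle group, with 1 of 3 markers in the table abundant enough to be tested and that 1 not called.

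Egr3, a factor that neurotrophin signalling induces and that muscle spindles need to form, was the family member that fell. The gene (ENSMUSG00000033730) lies at chromosome 14, 70077203 to 70082614, plus strand. It was measured at 0.157, 0.477, 0.415, 0.768 and 0.574 CPM in Visudyne libraries 1 to 5 and at 1.47, 1.17, 0.725, 1.93 and 0.945 CPM in vehicle libraries 6 to 10. All 5 Visudyne libraries lay below the vehicle mean and 4 of them below every vehicle library, and the overlap came from Visudyne 4 and vehicle 8. These levels rest on few counts, from 5 in Visudyne 1 (exact 95% Poisson interval 1.62 to 11.7, counting error only) to 76 in vehicle 9 (59.9 to 95.1). The means were 0.478 ± 0.224 and 1.25 ± 0.472 CPM, so the Visudyne level was 38.6% of the vehicle level. The log2 difference was -1.37 ± 0.36 (SE) with a 95% interval from -2.15 to -0.60 and an adjusted p of 0.0294 (edgeR).

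Within the groups, Egr3 was higher in libraries of higher GC slope. The deviations of its log2 CPM from the group mean had a Pearson r of 0.86 with those of the GC slope over 10 libraries (Spearman rho 0.84). The r of the other 6 genes lay between -0.43 and 0.37. For Egr3 it was 0.73 without Visudyne 1 and vehicle 10, the 2 libraries whose slope deviations from the group mean lay farthest from the median deviation. Without those 2 libraries the other 6 had r between -0.84 (Egr4) and -0.49 (Nr4a1), so that a relation with the slope is not particular to Egr3, although its sign differed. The libraries closest in slope across the groups were Visudyne 5 and vehicle 10, where Egr3 was at 0.574 and 0.945 CPM. With the GC trend removed over all genes the log2 difference of Egr3 was -1.24 (adjusted p = 0.0538), and in a fit with each library's GC slope as a covariate it was -0.16 (95% interval from -1.02 to 0.70, adjusted p = 0.97). These 2 ways of handling GC gave estimates that differ by over 1 on the log2 scale. The annotation holds a long Egr3 transcript of 3940 bases (51.3% GC) and a short one of 1509 bases (62.2% GC), and no source used here says which transcript models stand behind the deposited counts. Placed at the GC content of the short transcript, Egr3 had a log2 difference of -0.81 (adjusted p = 0.0868). Leaving out 1 library at a time kept the log2 difference between -1.61 and -1.16, and the call was lost without Visudyne 3 (adjusted p = 0.072), vehicle 6 (0.078) or vehicle 9 (0.069). In these libraries the treatment and the GC slope cannot be told apart.

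**Figure D2:**
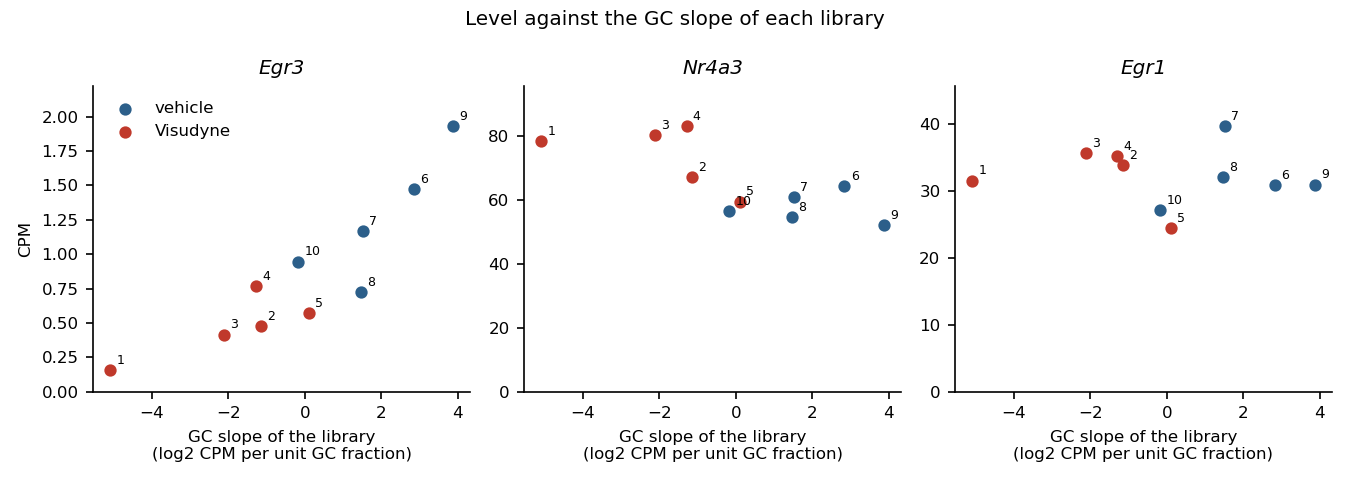
Level of Egr3, Nr4a3 and Egr1 in CPM against the GC slope of each library, in log2 CPM per unit of GC fraction, with libraries numbered by replicate and coloured by group. Egr3 runs from 0.157 CPM in Visudyne 1 (slope -5.09) to 1.93 CPM in vehicle 9 (slope 3.87), and the 2 groups meet only near a slope of 0, where Visudyne 5 and vehicle 10 sit.

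Egr4, the least studied Egr factor, is strongly neuronal. The gene (ENSMUSG00000071341) lies at chromosome 6, 85511121 to 85513589, minus strand. It was measured at 2.14, 3.15, 3.35, 3.04 and 1.72 CPM in the Visudyne libraries and 3.13, 4.33, 3.10, 2.16 and 2.88 CPM in the vehicle libraries. Visudyne 1 and 5 were below every vehicle library and the remaining 3 lay within the vehicle range. The means of 2.68 ± 0.711 and 3.12 ± 0.783 CPM gave a log2 difference of -0.22 (95% interval from -0.69 to 0.25, adjusted p = 0.465, edgeR). Its sign turned with the GC trend removed (0.20, adjusted p = 0.672), Egr4 being the most GC-rich of the 7 at 68.2%.

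Nr4a1, or Nur77 is induced in neurons by CREB and MEF2 and limits spine density on excitatory neurons. The gene (ENSMUSG00000023034) lies at chromosome 15, 101254269 to 101274795, plus strand. It was measured at 3.77, 5.0, 6.61, 6.62 and 4.62 CPM in the Visudyne libraries and at 6.32, 6.02, 6.98, 6.28 and 6.03 CPM in the vehicle libraries. The vehicle values were tightly grouped (6.33 ± 0.391 CPM), and Visudyne 1, 2 and 5 lay below all of them while Visudyne 3 and 4 lay inside their range (group mean 5.32 ± 1.26 CPM). The log2 difference of -0.25 had a 95% interval from -0.57 to 0.07 and did not pass the test (adjusted p = 0.219, edgeR). With the GC trend removed it was 0.16 (adjusted p = 0.601), so its sign depends on that step.

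Nr4a2, or Nurr1, specifies and maintains midbrain dopamine neurons and is also expressed in hippocampal and claustral neurons. The gene (ENSMUSG00000026826) lies at chromosome 2, 57106830 to 57124003, minus strand. It was measured at 42.4, 42.8, 61.4, 47.7 and 40.8 CPM in the Visudyne libraries and at 47.8, 57.9, 50.9, 48.9 and 42.7 CPM in the vehicle libraries. The highest value was Visudyne 3 and the lowest Visudyne 5, on either side of the whole vehicle group. The means were 47.0 ± 8.45 and 49.6 ± 5.52 CPM, and the log2 difference of -0.08 had a 95% interval from -0.33 to 0.17 (adjusted p = 0.629, edgeR). Its GC content was the lowest of the 7 at 47.9%, and removing the GC trend left the value at -0.09. Nr4a2 also marks the claustrum, and the claustrum and endopiriform markers summed to 20.8 to 26.0 CPM in the Visudyne group and 20.1 to 22.1 CPM in the vehicle group, with 1 of 4 called higher.

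Nr4a3, or Nor1, is the Nr4a gene that rose. The gene (ENSMUSG00000028341) lies at chromosome 4, 48045153 to 48086447, plus strand. It was measured at 78.5, 67.2, 80.3, 83.3 and 59.5 CPM in Visudyne libraries 1 to 5 and at 64.3, 61.0, 54.6, 52.2 and 56.7 CPM in vehicle libraries 6 to 10. All 5 Visudyne libraries exceeded the vehicle mean and 4 of them every vehicle library, with Visudyne 5 below vehicle 6 and 7. The means were 73.8 ± 10 and 57.8 ± 4.90 CPM, a 1.28-fold difference (log2 0.35 ± 0.095 SE, 95% interval from 0.15 to 0.56, adjusted p = 0.0311, edgeR). At 48.4% GC its estimate hardly moved when the GC trend was removed (0.37), although the adjusted p was then 0.0707. With each library's GC slope entered as a covariate, its estimate was 0.20 (95% interval from -0.11 to 0.50, adjusted p = 0.831). Scaled to total counts in place of TMM factors, which shifts the median of all genes from 0.01 to -0.19 on the log2 scale, the difference was 0.14 (adjusted p = 0.244), and set against the median of all genes it was 0.34 under both scalings. Leaving out 1 library at a time gave 0.31 to 0.41, and the call was lost without Visudyne 1 (adjusted p = 0.062), 3 (0.076) or 4 (0.062) or vehicle 6 (0.073), 8 (0.057) or 9 (0.075). The summed CA1 pyramidal neuron markers were also higher, at 551 to 709 CPM in the Visudyne group and 471 to 539 CPM in the vehicle group, but the 8 markers had a median log2 difference of 0.01. Dcn, Ccn3 and Man1a were called higher, Wfs1 lower (0 of the 8 with the GC trend removed). In Visudyne libraries 1 to 5 the CA1 sum was 574, 551, 709, 558 and 604 CPM. Visudyne 4 was the highest of these libraries for Nr4a3. Visudyne 5, the lowest of them for Nr4a3, also had the lowest summed dentate granule cell markers (347 CPM). The part of those markers in the Nr4a3 result was not tested.

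Set per kilobase of exon, the 7 genes of the vehicle group fell into 3 tiers. Nr4a2 stood at 12.2 ± 1.36, Nr4a3 at 9.65 ± 0.819 and Egr1 at 7.18 ± 1.04 RPKM (CPM divided by exon length in kilobases, SD, n = 5). Nr4a1 at 1.80 ± 0.111 and Egr4 at 1.45 ± 0.365 RPKM formed the middle tier, and Egr2 at 0.497 ± 0.169 and Egr3 at 0.283 ± 0.107 RPKM the lowest. In that group the library ranges overlapped between neighbours inside each tier and not between tiers. Within single libraries the top tier was ordered, with Nr4a2 above Nr4a3 and Nr4a3 above Egr1 in all 5. In the Visudyne group Egr1 lay below every Nr4a3 value (at most 7.97 against at least 9.94 RPKM) and Egr2 and Egr4 overlapped. The order was the same there except that Nr4a3 (12.3 ± 1.67 RPKM) stood beside Nr4a2 (11.6 ± 2.08 RPKM), a pair whose spreads overlap and whose order turns if the longest transcript is used as the length. The place of Egr3 at the bottom also rests on length: per kilobase of its short transcript it stood at 0.828 ± 0.313 RPKM in the vehicle group, above Egr2, and at 0.317 ± 0.148 RPKM in the Visudyne group, below it.

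Within a library the members can be set against each other without any scaling factor, which gives a further description of the same counts. Nr4a3 took 58.6 ± 3.40% of the counts of its family in the Visudyne group and 50.8 ± 2.94% in the vehicle group, while Nr4a2 took 37.2 ± 3.05% and 43.6 ± 2.91%. Nr4a3 counts per Nr4a2 count were 1.85, 1.57, 1.31, 1.75 and 1.46 in the Visudyne libraries and 1.35, 1.05, 1.07, 1.07 and 1.33 in the vehicle libraries. All but Visudyne 3 exceeded every vehicle library. Both genes have almost the same GC content (48.4% and 47.9%). Egr1 made up 86.1 ± 2.36% and 84.0 ± 2.04% of the Egr counts. Egr3 made up 1.30 ± 0.652% of Egr counts in the Visudyne group and 3.31 ± 1.36% in the vehicle group, or 0.00497 to 0.0234 against 0.0226 to 0.0624 counts per Egr1 count, so that only Visudyne 5 and vehicle 8 overlapped. Unlike the Nr4a pair, Egr3 (51.3% for its long transcript) and Egr1 (57.3%) differ in GC content. Their ratio was lowest in Visudyne 1, the library of lowest GC slope (-5.09), and highest in vehicle 9, that of highest slope (3.87). The ratio of Nr4a3 to Nr4a2 was also at an extreme in Visudyne 1, its highest (1.85), while its lowest (1.05) was in vehicle 7. Within groups, r with the GC slope was -0.43 for Nr4a3 and 0.05 for Nr4a2, so a similar GC content does not make their ratio free of the slope. Taking a ratio within a library does not remove a GC trend.

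**Figure D3:**
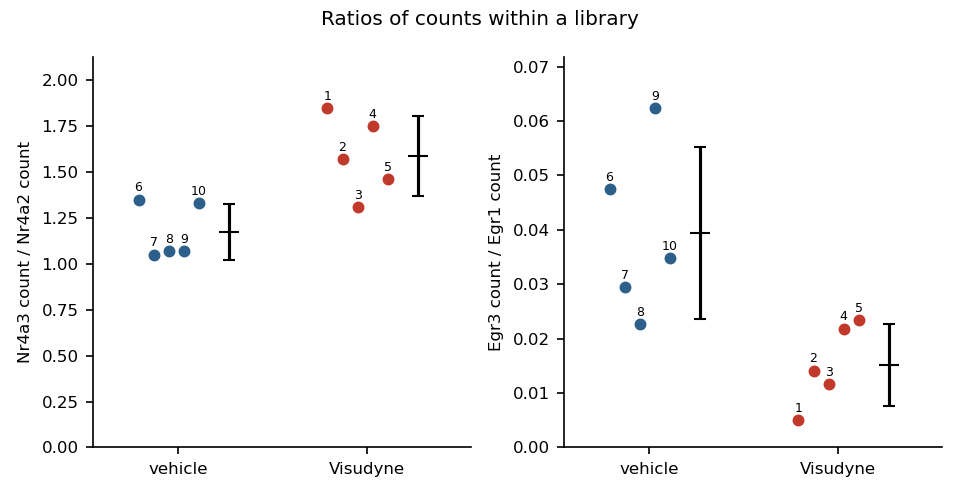
Nr4a3 counts per Nr4a2 count and Egr3 counts per Egr1 count within each library, on linear axes that start at 0, with points numbered by replicate and the mean and SD of each group (n = 5). The Nr4a3 ratio has a mean of 1.59 in the Visudyne group and 1.17 in the vehicle group, and the Egr3 ratio 0.0152 and 0.0394, with an overlap of the groups in each panel.

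Some libraries were the highest or lowest of their group for several members. Visudyne 5 was the lowest of its group for Egr1, Egr4, Nr4a2 and Nr4a3, and Visudyne 1 for Egr2, Egr3 and Nr4a1. Visudyne 3 was the highest for Egr1, Egr2, Egr4 and Nr4a2. In the vehicle group, vehicle 7 was the highest for Egr1, Egr4 and Nr4a2 but the lowest for Nr4a1. As a description over the 10 libraries with group means removed, Egr1 and Egr4 had the highest Pearson r of the 21 pairs under TMM scaling, 0.83 (Spearman rho 0.86). That r was 0.72 to 0.92 with 1 library left out, 0.62 without the 2 libraries farthest from the median of Egr1, and 0.76 with the GC trend removed. With the GC trend removed it was no longer the highest, since Egr4 and Nr4a1 had 0.80. Nr4a1 and Nr4a2 had 0.76 without the 2 libraries farthest from the median of Nr4a1. Those are other libraries than the 2 left out for Egr1, so 0.62 and 0.76 rest on different samples. Under TMM scaling, among 15937 other genes, Egr4 ranked 36 by its r with Egr1. Egr1 and Nr4a2 followed with an r of 0.75 (0.55 with the GC trend removed), and Egr4 and Nr4a2 with 0.65. Nr4a3 had an r of 0.63 with Egr1, 0.62 with Egr4 and 0.49 with Nr4a2. These were 0.32, 0.08 and 0.38 without the 2 libraries farthest from the median of Egr1, of Egr4 and of Nr4a2 respectively. The libraries left out thus differ between the 3 values. Egr3 stood outside this pattern, with r between -0.12 and 0.50 to the other members, and its highest, 0.50 with Nr4a1, was -0.24 with the GC trend removed. Taken in the Visudyne and the vehicle group apart, r was 0.93 and 0.70 for Egr1 with Egr4 and 0.63 and 0.99 for Egr1 with Nr4a2. For other pairs the groups differed, with 0.78 and -0.63 for Egr1 with Egr2 and 0.75 and 0.08 for Nr4a1 with Nr4a2. All of these r share the libraries' depth, composition and dissection.

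**Figure D4:**
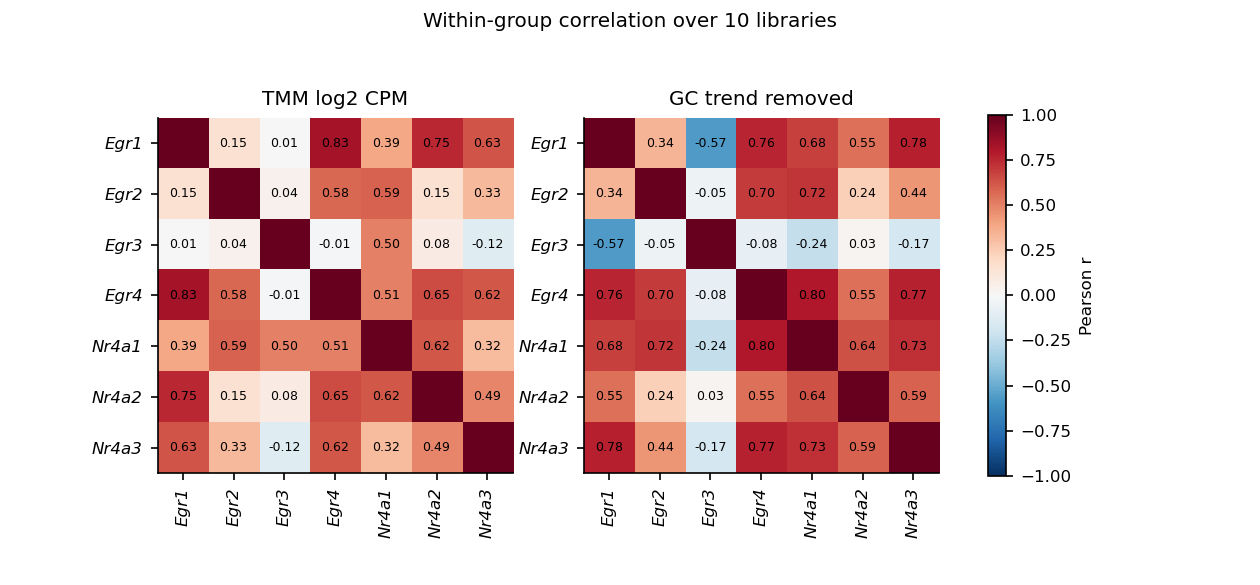
Pearson r between the members' log2 CPM over 10 libraries after the group means were removed, with TMM scaling (left) and with the GC trend of each library removed (right). Egr1, Egr4 and Nr4a2 form the closest trio at left (0.83, 0.75 and 0.65), and Egr3 lies between -0.57 and 0.03 at right.

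The genes whose within-group pattern was most like each member, among 11562 protein-coding genes averaging 1 CPM or more, were as follows. Egr1 was closest to the kinesin gene Kif1b (r = 0.92), the ascorbate transporter Slc23a2 (0.90) and the DNA glycosylase Mbd4 (0.89). Egr4 was closest to Tmem199 (0.93), the RNA polymerase subunit gene Polr2d (0.90) and Paqr8 (0.89). Egr2 was closest to the autophagy gene Becn1 (0.91), Zbtb7a (0.91) and Uba2 (0.87). No member was among the 3 genes nearest to another. Nr4a1 was nearest to the aconitase gene Aco1 (0.91), Ddx6 (0.90) and Ccdc87 (0.89). Nr4a2 was nearest to the carbonic anhydrase gene Car13 (0.96), the delta-catenin gene Ctnnd2 (0.93) and Shisa9 (0.91). Nr4a3 was nearest to Mfsd4a (0.94), the gastrin-releasing peptide receptor gene Grpr (0.92) and E2f3 (0.91). Egr3 had the closest neighbours of all, the fatty acid binding protein gene Fabp5 (0.99), Plpp7 (0.98) and Tnks1bp1 (0.98), and these 3 themselves had r of 0.91, 0.87 and 0.91 with the GC slope of the libraries. With the GC trend removed, the r of the pairs named here ran from 0.48 (Egr1 with Mbd4) to 0.95 (Nr4a1 with Aco1). The genes were picked as the highest of 11562 over 10 libraries, so a high r follows in part from the choice.

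The other genes of the pathway were taken from 6 lists of 108 different genes, of which 102 were tested and 27 called, or 26.5% against 20.5% of all tested genes. With the GC trend removed 5 of the 27 were called: Rps6ka1, Rxrg, Jun, Scg2 and Rasgrf1. With each library's GC slope as a covariate none of these 5 was called. Their log2 differences in that fit were -0.66, 2.52, 0.21, -0.37 and -0.15, with adjusted p between 0.253 (Rxrg) and 0.779 (Rps6ka1, edgeR). Counted once for each list that holds them, 29 were called over the 6 lists. With Visudyne 3 or vehicle 6 left out that sum was 0, and with vehicle 9 left out it was 3. It was 9, 16 and 10 when Visudyne 1, 2 or 4 was omitted, 14 and 19 when vehicle 7 or 8 was omitted, and 48 when Visudyne 5 was omitted. Over all genes the number called moved likewise, from 10 without vehicle 6 to 5047 without Visudyne 5. The median log2 difference of all tested genes was 0.01. By direction, 8.98% of all tested genes were called higher and 11.5% lower, and 2.8% were called with the GC trend removed. The counts of each list below stand beside these shares.

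Among 31 upstream kinases, coactivators and transcription factors, 5 rose and 6 fell, with a median log2 difference of 0.04. Removing the GC trend left 0 called higher and 1 lower (median 0.05). The ribosomal S6 kinases, which carry MAP kinase signals to CREB and SRF, went both ways: Rps6ka1 fell to 40.5% and Rps6ka2 to 72.4% of the vehicle level, and Rps6ka3 rose to 129%. Rps6ka1 rests on few counts, 10 to 34 in the Visudyne libraries and 40 to 72 in the vehicle libraries. The MEF2 factor gene Mef2d fell to 79.5%. After removal of the GC trend, the log2 difference of Mef2d went from -0.33 to -0.00274, that of Rps6ka3 from 0.37 to 0.11 and that of Rps6ka2 from -0.47 to -0.19, none of them called, and Rps6ka1 was at -0.90 (adjusted p = 0.0467). Srf itself stood at 5.90 ± 1.0 CPM in the Visudyne group and 7.23 ± 0.687 CPM in the vehicle group and did not pass (log2 -0.29, adjusted p = 0.0964), and its sign turned with the GC trend removed (0.25). Creb1 stood at 119 ± 13.8 and 102 ± 8.04 CPM and did not pass either (log2 0.22, adjusted p = 0.0778, and -0.07 with the GC trend removed).

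Among 13 partners and corepressors, 1 rose and 4 fell, with a median of -0.27. The median turned to 0.05 when the GC trend was removed, with 1 called higher and 0 lower. Nab1, which binds Egr proteins and represses them, was measured at 0.848, 0.0318, 0.830, 0.384 and 0.913 CPM in the Visudyne libraries and 2.21, 1.65, 1.13, 2.87 and 1.10 CPM in the vehicle libraries. The groups did not overlap, as for 12.5% of all tested genes, and Nab1 fell to 33.7% of the vehicle level (log2 -1.57 ± 0.48 SE, adjusted p = 0.0414). These levels rest on few counts, 27, 1, 26, 13 and 35 in Visudyne libraries 1 to 5 and 28 to 113 in the vehicle libraries. Its within-group r with the GC slope was 0.02, and with the GC trend removed its log2 difference was -1.61 (adjusted p = 0.0663). With each library's GC slope as a covariate it was -1.12 (adjusted p = 0.829, edgeR). Its sister corepressor Nab2 stood at 2.76 ± 0.857 and 3.67 ± 0.399 CPM (log2 -0.41, adjusted p = 0.142, and 0.08 with the GC trend removed). Rxrb, a retinoid X receptor gene, fell to 59.2%, the corepressor subunit gene Sin3b to 62.5% and Hdac3 to 82.7%. In the fit without the GC trend these 3 were at -0.21, -0.30 and -0.32 on the log2 scale (-0.76, -0.68 and -0.27 before), none of them called. Rxrg, whose product like that of Rxrb can pair with Nr4a1 and Nr4a2, rose to 234% from a low level, with 0.440, 0.764, 1.09, 1.27 and 1.33 CPM in the Visudyne libraries and 0.483, 0.371, 0.204, 0.738 and 0.276 CPM in the vehicle libraries. It passed the test with the GC trend removed as well (log2 1.52, adjusted p = 0.0337). Its within-group r with the GC slope was 0.84. Its levels rest on few counts, 14 to 51 in the Visudyne libraries and 7 to 29 in the vehicle libraries.

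Genes reported as Egr targets gave 0 higher and 3 lower of 12 tested, with a median of -0.37: Dlg4, the postsynaptic scaffold PSD-95, at 65.8% of the vehicle level, the secreted neuropeptide precursor gene Vgf at 72.4%, and Nab1. None of the 12 was called once the GC trend was removed, and the median was -0.05, with Dlg4 at -0.66 (adjusted p = 0.0545) and Vgf at 0.09. Genes reported as Nr4a targets gave 2 higher and 2 lower of 9 tested, with a median of -0.05. The vesicular monoamine transporter gene Slc18a2 rose to 132% and the chaperone gene Dnajb9 to 129%, while Xbp1 fell to 82.3% and the disulfide isomerase gene Pdia6 to 82.4%. Removal of the GC trend left 0 called (median -0.06): the log2 differences of Dnajb9 and Xbp1 shrank from 0.37 to 0.10 and from -0.28 to -0.06, and those of Slc18a2 (0.36) and Pdia6 (-0.25) stayed near their size. Some genes stand on more than 1 list.

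Of the other rapid activity-regulated genes, 1 of 25 tested rose and 1 fell, with a median of -0.00115. Jun, a subunit of the AP-1 factor, rose to 120% (21.6 ± 0.498 against 17.9 ± 0.967 CPM), and the cell adhesion gene Amigo3 fell to 59.4%. The median was 0.17 with the GC trend removed, with Jun called (log2 0.63) and Amigo3 not (-0.35). Fos stood at 10.7 ± 2.92 and 7.52 ± 1.71 CPM (log2 0.51, adjusted p = 0.0872), Arc at 15.8 ± 4.41 and 19.7 ± 2.63 CPM (log2 -0.32, adjusted p = 0.198), and Npas4 at means of 1.56 and 2.01 CPM (log2 -0.35, adjusted p = 0.447). None of these 3 genes, the most used markers of recent neuronal firing, passed the test. With the GC trend removed their log2 differences were 0.685 (Fos), 0.148 (Arc) and -0.00152 (Npas4), none of them called. The sign of Arc thus depends on that step. Of 20 delayed activity-regulated genes, 0 rose and 4 fell, with a median of -0.16 (-0.11 with the GC trend removed). The secretogranin gene Scg2 fell to 66.6%, the exchange factor gene Rasgrf1 to 77.2%, the synaptic pentraxin gene Nptx2 to 76.7% and Vgf to 72.4% of the vehicle level. With the GC trend removed, Scg2 (log2 -0.65) and Rasgrf1 (-0.27) still passed, and Nptx2 and Vgf changed sign (0.11 and 0.09). Neither Scg2 (-0.37) nor Rasgrf1 (-0.15) passed with the GC slope as a covariate.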

How the data were processed

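Per the labels' protocols the kit was for total RNA and kept strand. The submitters' processing notes name FastQC, Salmon and mm10, and no source used here gives their versions or the transcript models. The deposited values are estimated counts per gene that the authors took from Salmon, given as whole numbers in 1 table of 10 libraries. They were tested in edgeR 4.0.16 (R 4.3.3) with filterByExpr, TMM factors and the quasi-likelihood test of Visudyne against vehicle, two-sided, with Benjamini-Hochberg adjustment over 15938 genes and calls at an adjusted p below 0.05. Nothing in the labels ties the replicates to housing or processing days, so p-values measure only the spread between these libraries. The 2 most alike libraries of a group had a chi-square of 13.5 per degree of freedom, above counting noise.

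Symbols, exon lengths and GC content came from GENCODE M21 (GRCm38). The GC trend was removed as a loess curve of span 0.3 per library, entered as an offset. Its degree was set to that of an earlier analysis of these data after the count of genes called had been seen. Correlations used log2 CPM with a prior count of 2 and carry no p. Alternatives were 13 settings of scaling, filter, tool (DESeq2 1.42.0, limma 3.58.1, sva 3.50.0) and covariates, each library left out, and further settings added after seeing the data. The fit was also run on simulated counts that held no GC trend between libraries, so that run cannot speak to the GC slope. In each list the called genes of smallest p, up to 4, were named, with a panel of Fos, Arc, Npas4, Nab1, Nab2, Srf and Creb1 and the 3 genes most like each member. Members and lists were chosen with earlier results of these data known.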

Additional observations from a re-analysis of the deposited data

How the results depend on the processing

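No paired analysis was possible because the groups share no replicate numbers. With 1 surrogate variable, 1 gene was called (1 higher, 0 lower) and 0 members (2548 genes at an unadjusted p below 0.05), with Egr3 at -0.551 and Nr4a3 at 0.234 on the log2 scale. With the GC slope as a covariate, 0 genes and 0 members were called by edgeR (1050 genes and 0 members at an unadjusted p below 0.05), with Egr3 at -0.162 and Nr4a3 at 0.199. With the GC trend removed, 447 genes (191 higher, 256 lower) and 0 members were called, with Egr1 at 0.454, Egr3 at -1.24, Egr4 at 0.201, Nr4a1 at 0.157 and Nr4a3 at 0.365. With GC and length trends removed, 572 genes (264 higher, 308 lower) and 0 members were called, with Egr1 at 0.458, Egr3 at -1.24, Egr4 at 0.191, Nr4a1 at 0.150 and Nr4a3 at 0.379. Total counts gave 196 genes higher and 3902 lower, Nr4a3 at 0.142 and 0 members higher. No filter gave 2075 genes (818 higher), and DESeq2 4480. A mean of at least 1 CPM left Egr3 untested and 0 members lower. Egr1, near 0, changed sign with RLE factors (0.0061), DESeq2 (0.00646) and library weights (0.00995). Leaving out 1 library gave 10 (without vehicle 6) to 5047 (without Visudyne 5) genes called, 5 to 2174 of them higher and 5 to 2873 lower, 0 to 1 members higher, 0 to 1 lower, Egr1 at -0.064 to 0.0868, Egr3 at -1.61 to -1.16 and Nr4a3 at 0.306 to 0.412.

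Of the settings chosen after seeing the data, Egr3 at the GC content of its short transcript gave 448 genes (191 higher, 257 lower), 0 members, Egr1 at 0.454, Egr3 at -0.808, Egr4 at 0.202, Nr4a1 at 0.157 and Nr4a3 at 0.365. Without Visudyne 1 and vehicle 9, the libraries of most extreme GC slope, 100 genes (58 higher, 42 lower) and 0 members were called, with Egr3 at -0.943 and Nr4a3 at 0.294. Without Visudyne 5 and with the GC trend removed, 1363 genes (697 higher, 666 lower) and 3 members were called, 2 of them higher. These calls are a description only, since that library was dropped after its Egr1 level had been seen. Egr1 was at 0.596, Egr4 at 0.407 and Nr4a1 at 0.268 in that fit. Those 3 genes, all positive, are not the 3 called, of which 1 was lower. The cause of these differences was not tested. The intervals of Egr3 and Egr2 were the widest of the 7. Egr3 rested on 5 to 76 counts a library and Egr2 on 41 to 88, and both also varied between libraries (biological coefficients of variation of 35.2% and 30.8%).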
